A study of Arabidopsis thaliana with 51 samples.

Results

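CHH methylation is the methylation of cytosines followed by neither G at the next position nor G at the one after it. The sites described here are the CHH cytosines of a 1400-bp region, 10385702 to 10387101 in TAIR10, which is the downstream part of the interval methylated in flowers of Arabidopsis thaliana carrying AGe constructs. The interval was defined from the Col AGp//AGe sMf library, by joining windows of 100 bp whose mean reached 10% across gaps of lower windows, and that library entered no test. The table lists 330 such CHH entries of 4378 CHH entries and 5709 cytosine entries in all. Of these, 3 shared a coordinate with another entry and 28 could not be placed in every group of columns, which left 299 sites, 145 on the plus and 154 on the minus strand. At the edges of the region the library that defined it had a mean CHH level of 1.79% in the last window before the region, against 17.4% in the first window inside. It had 23.7% in the last window inside and 2.92% in the first window beyond.

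Bisulfite sequencing of young-flower DNA gave the methylation of single cytosines in 51 libraries, with flowers of 5 to 10 lines of the same phenotype pooled for each. The series title concerns an anti-RdDM element, abbreviated ARE, where RdDM is RNA-directed DNA methylation. The coordinates were taken as those of AG (AT4G18960), on chromosome 4 of the TAIR10.1 gene table. The position of the sites relative to exons and introns was not determined, and the base sequence of the sites was not used here.

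Set A held 28 libraries. Its constructs in Col plants were AGe with rMf flowers (n = 2), AGp//AGe with sMf and with rMf flowers (1 each), UF2//AGe and UF4//AGe (1 each, labelled sMf in the title and rMf in another field), ARE//AGe with Wt flowers (1) and AGp with Sterile flowers (n = 2), set against Col Wt (n = 2). AGe was also carried by M317 plants with sMf (n = 2) or rMf flowers (n = 3), set against M317 Wt (n = 3), and by M318 plants with sMf (n = 3) or rMf flowers (n = 3), set against M318 Wt (n = 3). Set B held 13 libraries. It paired the Met1-1 and ddm1-1 alleles with ARE//AGe (sMf and rMf), Ctr//AGe (rMf) or no construct named (Wt). Its Col plants had AGE (rMf), Ctr//AGE (rMf and Wt) or no construct named (Wt, n = 2). AGE and AGe are both spellings of the labels. Set C held 10 libraries, with ARE//AGe in suvh1-2 (sMf), hdp1-1 and hdp2-1 (sMf and rMf) and Wt libraries of the same alleles. It also had Col with ARE//AGe (Wt) or no construct named (Wt). Groups of sets B and C had 1 library unless stated. The meanings of sMf, rMf, M317, M318, AGe, AGp, UF2, UF4 and Ctr are not explained in the labels, and the promoter and insertion site of the constructs are not given.

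AG is a MADS-box gene that specifies stamens and carpels and ends the growth of the floral meristem, and its large intron carries sequences that control its expression. CHH methylation has no symmetric partner on the other strand, so it has to be laid down anew after each replication. In plants this is done by DRM2, guided by small RNAs of the RdDM pathway and by scaffold RNAs of Pol V, and in heterochromatin by CMT2. CpG methylation is copied by MET1 and CHG methylation by CMT3. DDM1 is a chromatin remodeler that opens heterochromatin to these enzymes, SUVH1 recognises methylated cytosines and favours transcription nearby, whereas active demethylation involves HDP1 and HDP2.

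Every value below is the deposited level in percent of methylated calls, with the sign removed, since the sign marks the strand. The table gives no read counts, so the depth is unknown for every library, and a listed 0 can be an unmethylated or an uncovered cytosine. In pooled flower DNA, methylation of fewer DNA copies and weaker methylation of each copy cannot be told apart, and reads of a construct and of the endogenous locus were not separated. In set A, the columns form 2 blocks, with replicate A of each group in column block 1 and the B and C replicates in column block 2. A library that stands apart is M318 AGe sMf replicate A, with a mean of 2.12% over the 299 sites against 29.7% and 26.1% in replicates B and C. It was listed at 0 at 271 sites and at 11% to 50% at the other 28, of which 22 were on the plus strand. For M318 AGe sMf, differences in mean level and the count called against Wt are given with and without it. Other results include it unless stated. The limma fit described below used all 23 libraries of the replicated set A groups together, so this library also entered the calls in Col and M317. Those calls leave it out only where the compared groups were fitted alone.

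The question of the comparisons with Wt flowers was how far the region was methylated in plants carrying AGe. In Col, the mean over the 299 CHH sites was 35.25% and 31.85% in the AGe rMf libraries, against 1.92% and 0.826% in the Wt libraries. The groups were far apart, and the difference of 32.2 percentage points exceeded the spread within groups (SD 2.40 in AGe rMf and 0.773 in Wt, n = 2 each). It was 19.2 when listed zeros were treated as missing. Taken by column block it was 33.3 in block 1 and 31.0 in block 2. Calls were made with limma: 253 of the 299 sites were higher in AGe rMf at a Benjamini-Hochberg adjusted p under 0.05, which is 84.6% of them, against 28.7% of the 2294 cytosines tested across the whole table. The count was 167 without AGe rMf replicate A. All 299 sites passed the filter on low values, which asked for a level above 0 in 2 of the fitted libraries, but 219 of them were above 0 in fewer than 2 of the 10 fitted libraries without AGe. Those sites passed through the AGe libraries in which they are high, so the counts of called sites are a description and support nothing further. With no filter the count in Col AGe rMf was 216. The median difference was 32 percentage points over the sites and 0 over all cytosines tested.

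M317 flowers carrying AGe were methylated to a similar extent. The mean level was 36.0% and 33.6% in AGe sMf and 29.3%, 34.9% and 31.6% in AGe rMf, against 4.08%, 0.248% and 1.30% in M317 Wt. Every AGe library lay above every Wt library, and the highest Wt value was that of replicate A. limma called 257 sites higher in sMf against Wt, beside 28.1% of all cytosines tested, and 246 higher in rMf against Wt, beside 24.4%. The difference from Wt was 32.9 percentage points in sMf and 30.04 in rMf, and within column blocks 1 and 2 it was 31.9 and 32.8 in sMf and 25.3 and 32.4 in rMf. With listed zeros treated as missing it was 20.3 in sMf and 17.4 in rMf.

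In M318 the rMf libraries were at 34.2%, 26.1% and 28.1%, and the Wt libraries at 0.993%, 0.528% and 0.833%. limma called 264 sites higher in AGe rMf, beside 26.4% of all cytosines tested, with a difference in mean level of 28.7 percentage points, or 15.5 with listed zeros treated as missing. For AGe sMf, limma called 150 sites higher than in Wt, beside 13.9% of all cytosines tested, and the mean level was 19.3% ± 14.97 (SD, n = 3) against 0.785% ± 0.236 (n = 3). The count was 0 when the compared groups were fitted alone (69 at an unadjusted p under 0.05 in limma), and it ran from 21 on the percent scale to 232 with a filter of 5 libraries. Without sMf replicate A it was 285, and the difference was 27.1 percentage points instead of 18.5. That difference was 11.9 with listed zeros treated as missing. The count was 24 and 22 when sMf replicate B or C was left out. Dropping 1 of the M318 Wt libraries gave 25, 24 and 22. By column block, the sMf difference was 1.13 in block 1, where replicate A is the sMf library, and 27.2 in block 2.

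**Figure D1:**
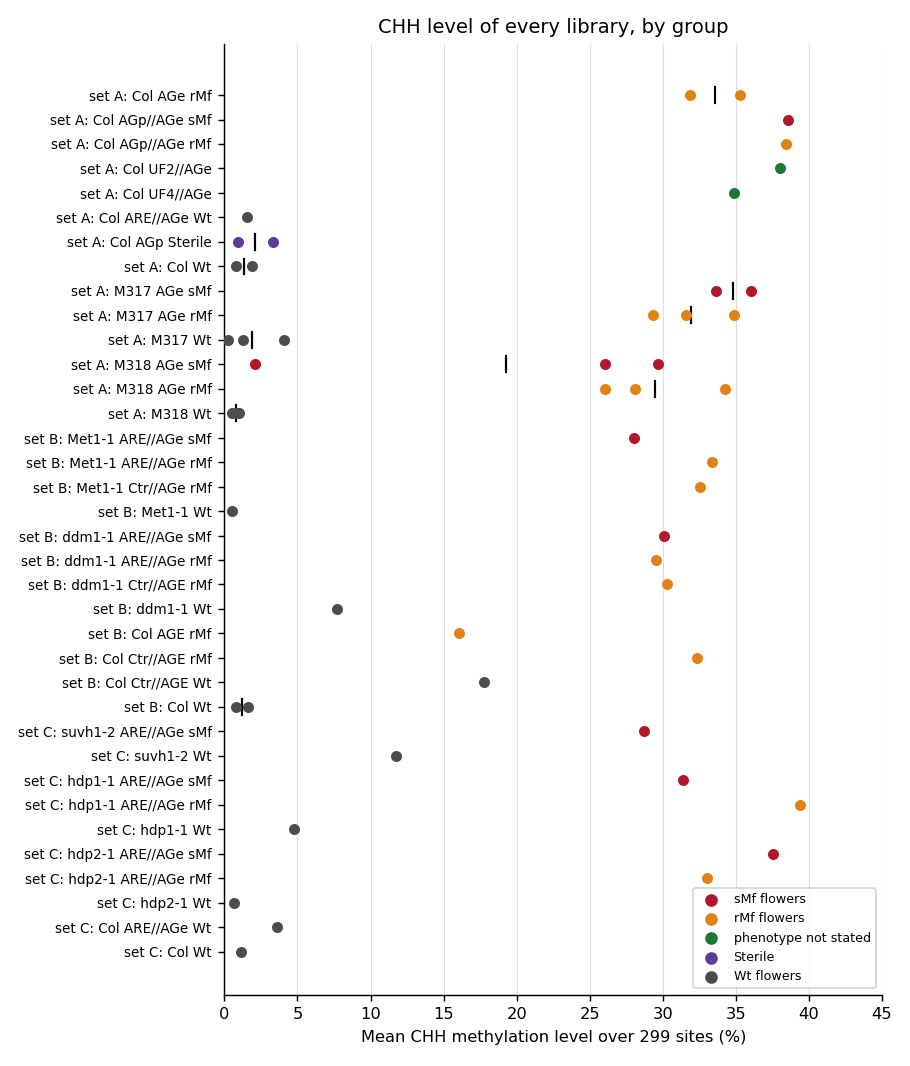
Mean CHH level in percent over the 299 sites for every library (points), by set, background, construct and flower phenotype, with a bar at the mean of groups of 2 or more. The sMf and rMf libraries lie between 16.0% and 39.4% except M318 AGe sMf replicate A at 2.12%, and the Wt libraries below 5% except those of ddm1-1, suvh1-2 and Col Ctr//AGE.

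AGp Sterile flowers, whose labels name AGp and not AGe, had 3.35% and 0.906%, against 1.92% and 0.826% in Col Wt, and the ranges overlapped. limma called 2 sites higher, beside 21.4% of all cytosines tested, and 2 lower, beside 0.654%. The site at 10386337 on the minus strand was at 25% and 17% in AGp Sterile and listed at 0 in both Col Wt libraries (limma adjusted p = 0.0145). The site at 10386961 on the minus strand was at 12% and 20%, again with 0 in both Col Wt libraries (limma adjusted p = 0.0424). The lower sites, both on the plus strand, were listed at 0 in both AGp Sterile libraries, against 9% and 17% in Col Wt at 10386216 and 25% and 12% in Col Wt at 10386418 (limma adjusted p = 0.0338 and 0.00269). Leaving out AGp Sterile replicate 1 or either Col Wt library took the count of higher sites to 0 (12 to 19 at an unadjusted p under 0.05 in either direction), and leaving out AGp Sterile replicate 2 took it to 5. The count was also 0 with a filter of 5 libraries and on the percent scale (4 and 2 at an unadjusted p under 0.05).

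The rise was uneven along the region. From the 2 Col AGe rMf libraries, windows with a mean below 22.4% were set apart after the data were seen, where 22.4% is 2/3 of the region's mean. This gave low stretch 1 (10385702 to 10385901, 34 sites), high stretch 1 (10385902 to 10386401, 111 sites), low stretch 2 (10386402 to 10386601, 40 sites) and high stretch 2 (10386602 to 10387101, 114 sites). In Col AGe rMf the windows of high stretch 1 had means of 32.9% to 52.2%, and those of high stretch 2 had 24.1% to 42.6%. The windows of low stretch 1 were at 12.7% and 21.7%, and those of low stretch 2 at 19.3% and 11.3%. Of the 31 libraries of any group with a region mean of at least 10%, 29 had no part in setting the stretches, and in all 29 the low stretches were below the high ones. Over the 31, the lowest window was the 1st of the region in 15 and the 9th in 16 libraries, and the highest was the 4th, 5th or 6th in 22 libraries and the 10th or 13th in the other 9.

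Calls against Wt were counted by stretch. In M317 AGe rMf against Wt, 40 of the 74 sites of the low stretches and 206 of the 225 sites of the high stretches were called higher. In M318 AGe rMf against Wt the counts were 46 of 74 and 218 of 225. In M317 AGe sMf against Wt they were 58 of 74 and 199 of 225. In Col AGe rMf against Wt they were 55 of 74 and 198 of 225, where the same libraries set the stretches. Over all cytosines tested, the share called higher was 24.4%, 26.4%, 28.1% and 28.7% in these comparisons, in the order given. In M318 AGe sMf against Wt, with replicate A included, the counts were 20 of 74 and 130 of 225, beside 13.9% of all cytosines tested. Like the totals above, these counts are a description.

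CHH levels were low on both sides of the region. Over the 29 libraries of sMf, rMf, UF2//AGe and UF4//AGe flowers with a region mean of at least 10%, the CHH level of the 300 bp before the region had a median of 4.09% (0.636% to 11.1%). That gap lies inside the AGe interval and separates the region from the methylated sites upstream of it. In the 100 bp after the region the median was 5.46% (1.92% to 20.7%), and from 101 to 300 bp after it 0.810% (0 to 4.36%). Within these libraries the region itself had a median of 32.3%. The library that defined the interval is among the 29, so its low level just beyond the downstream end was set by that definition.

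**Figure D2:**
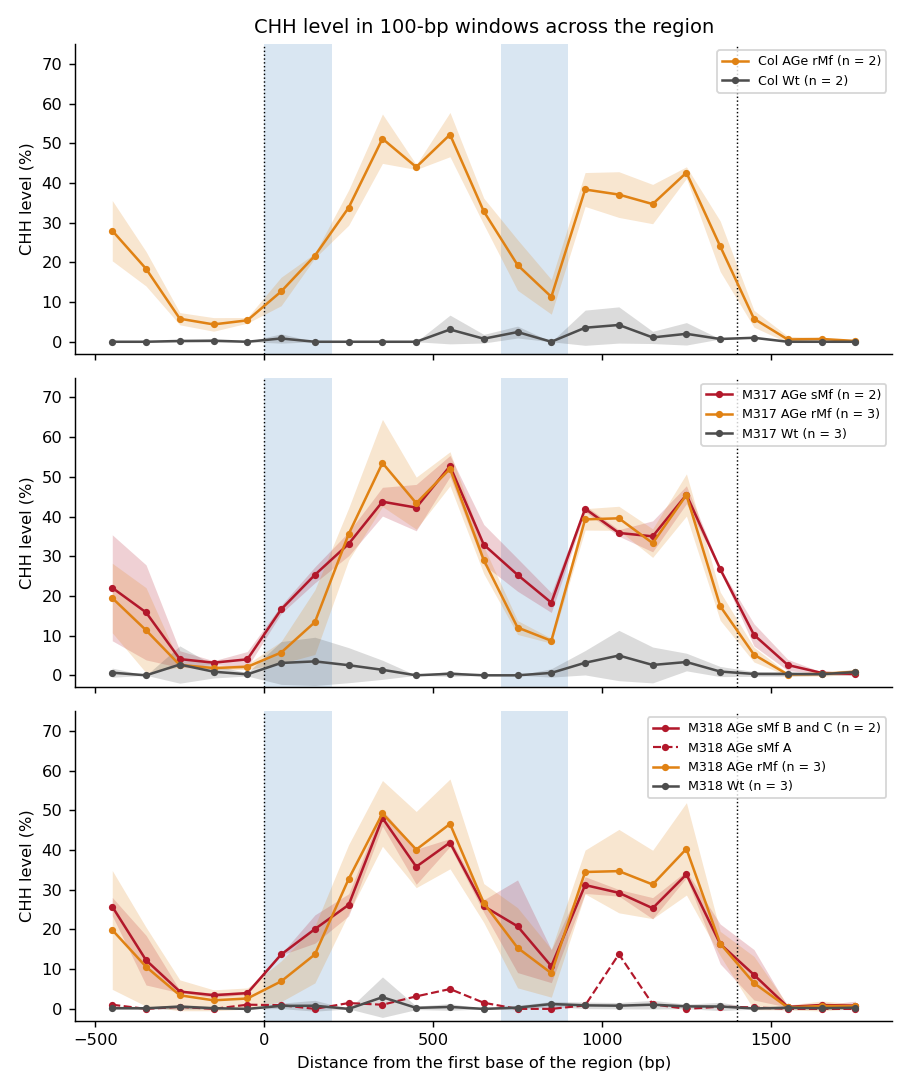
CHH level in percent in 100-bp windows against the distance from the first base of the region in bp, for Col, M317 and M318 plants of set A, as group means with bands of 1 SD. Dotted lines mark the ends of the region and shading the low stretches. In Col AGe rMf the windows reach 52.2% in high stretch 1 and 42.6% in high stretch 2, with 11.3% between them, and M318 AGe sMf replicate A (dashed, mean 2.12%) is drawn apart from replicates B and C.

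The levels of single sites were correlated between libraries. Over 15 set A libraries with AGe, leaving out ARE//AGe Wt, M318 AGe sMf replicate A and the library that defined the region, 4 sites had a mean below 5%, 83 were at 5% to below 20%, 157 at 20% to below 50%, and 55 at 50% or more. The 55 highest all lay in the high stretches, whereas 59 of the 87 sites below 20% were among the 74 of the low stretches. The Col AGe rMf libraries that set the stretches are among the 15, so this split was partly fixed in advance. Levels were above 0 in all 15 libraries at 291 of the 299 sites. Across the 299 sites, Pearson's r between these libraries had a median of 0.869 over 105 pairs (0.678 to 0.956), and between the 13 sMf and rMf libraries of sets B and C a median of 0.885 over 78 pairs. Among the 8 Wt libraries of set A the median was -0.03 over 28 pairs. Sites share libraries and neighbours are not independent, so these values are a description.

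Ranked by the mean of the 18 set A libraries with AGe, the 5 highest sites were at 10386051, 10386044, 10386114, 10386073 and 10386182, all within high stretch 1. The ranking uses the same libraries that are compared with Wt, so p-values at these sites are a description. The plus-strand site at 10386051 was at 70% and 82% in Col AGe rMf, against 0 in both Col Wt libraries (limma adjusted p = 0.00753). In M317 it was at 56% and 79% in AGe sMf and at 64%, 86% and 75% in AGe rMf, against 0 in all 3 Wt libraries. In M318 it was at 0, 66% and 86% in AGe sMf and 69%, 60% and 82% in AGe rMf, against 17%, 0 and 0 in Wt. Apart from the 0 of M318 AGe sMf replicate A, each of these libraries with AGe alone was above every one of these Wt libraries. Col ARE//AGe with Wt flowers, also among the 18, had a mean of 0 in the 4th window, which holds this site.

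The plus-strand site at 10386182 had the lowest SD of these 5, at 6.09 over the 15 libraries that leave out M318 AGe sMf replicate A, against 7.45 to 9.24 at the others. It was at 68% in both Col AGe rMf libraries, at 65% in both M317 AGe sMf libraries, and at 57%, 71% and 64% in M317 AGe rMf, against 0 in all Wt libraries of Col, M317 and M318. In M318 AGe sMf it was at 20%, 67% and 48% and in AGe rMf at 70%, 61% and 56%. It was 1 of the sites at which M318 AGe sMf replicate A was above 0, and it was called higher in all 5 comparisons of AGe with Wt (limma adjusted p between 3.11e-07 and 2.57e-06). As it was picked by its level in these libraries, the calls support nothing further. The minus-strand sites at 10386114 and 10386073 were at 66% in both and at 71% and 80% in Col AGe rMf, each against 0 in both Col Wt libraries.

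Single sites inside the region had low levels. The 5 lowest were at 10385751, 10385761, 10386386, 10385720 and 10386376, of which 10386386 and 10386376 sit at the downstream end of high stretch 1. The minus-strand site at 10385751 was at 8% and 2% in Col AGe rMf, 7% and 3% in M317 AGe sMf and 3%, 1% and 3% in M317 AGe rMf, against 0 in all Wt libraries of Col and M317. The minus-strand site at 10386386 was at 6% and 2% in Col AGe rMf and at 5% and 4% in M317 AGe sMf, against 0 in the same Wt libraries. These low levels were still called higher than Wt, with differences of 4.0 to 5.0 percentage points for both sites in Col AGe rMf and M317 AGe sMf (limma adjusted p between 0.00289 and 0.0469). The sites were picked by their level in the same libraries, so these p-values are a description.

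For M318 AGe sMf against Wt, the rule of no overlap between groups admits sites at which replicate A was above 0 as well. The largest difference was at 10385937 on the plus strand, with 25%, 55% and 58% in AGe sMf, against 0 in all 3 Wt libraries (limma adjusted p = 6.1e-07). The smallest was at 10386784 on the minus strand, with 14%, 13% and 15%, again against 0 in all 3 (limma adjusted p = 9.56e-06). These sites were picked by their difference in the same libraries, so their p-values are a description. In total 25 sites were free of overlap in this comparison, beside 2.27% of all cytosines tested, and 284 in M318 AGe rMf against Wt, beside 27.6%.

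**Figure D3:**
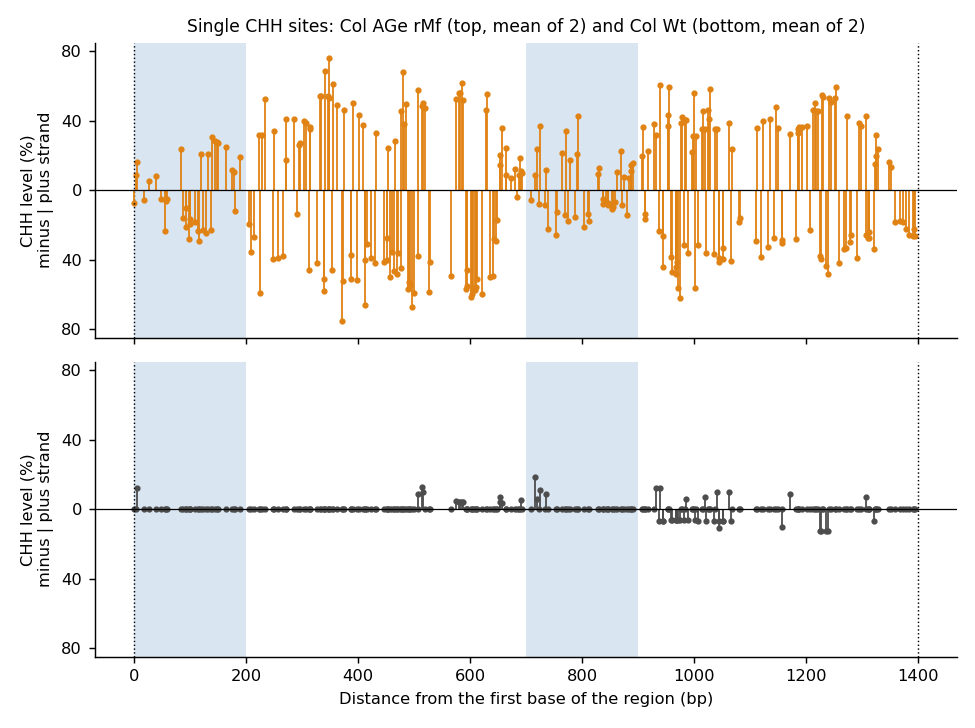
CHH level in percent of each of the 299 sites against its distance from the first base of the region in bp, plus strand upward and minus strand downward, for Col AGe rMf (top, mean of 2 libraries) and Col Wt (bottom, mean of 2). In Col AGe rMf levels are low in the shaded stretches on both strands, while 88.3% and 93.3% of the sites are at 0 in the Col Wt libraries.

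Most sites were listed at 0 in Wt flowers of set A. Of the 299 sites, 157 were listed at 0 in all 8 Wt libraries of set A, 95 were above 0 in 1 of them and 47 in 2 to 4. The mean level of these libraries lay between 0.248% and 4.08%, and 81.9% to 97.7% of their sites were at 0.

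Both strands were methylated to nearly the same level. The mean of plus-strand sites minus that of minus-strand sites ran from -3.37 to 4.81 percentage points in the 31 libraries of at least 10%, and plus was the higher in 24. The order moved with the column block. Among the sMf, rMf, UF2//AGe and UF4//AGe libraries of set A, plus was higher in 1 of 6 in column block 1 and in 10 of 10 in column block 2, and it was higher in all 13 of sets B and C. The strand order and the column block can therefore not be told apart. For Col AGe rMf the plus-strand mean was 35.9% and 33.2%, and the minus-strand mean 34.7% and 30.55%.

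Neighbouring sites had like levels on both strands. In Col AGe rMf replicate A, Pearson's r between pairs 1 to 10 bp apart was 0.751 on the same strand (349 pairs) and 0.576 on opposite strands (286 pairs). At 26 to 50 bp it was 0.394 and 0.407, and at 51 to 100 bp 0.183 and 0.0706. Replicate B gave 0.848 and 0.717 at 1 to 10 bp and 0.320 and 0.220 at 51 to 100 bp.

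CHH sites can be split by whether the following 2 bases are themselves cytosines, as far as the table lists the cytosines of that strand. With W for a position that is not a listed cytosine, there were 205 CWW, 42 CCW, 41 CWC and 11 CCC sites. CCW sites were lowest in all 31 libraries of at least 10%, and they were also below CWC and CWW sites in all 31 when the high stretches were taken alone. In the low stretches, with 9 CCW and 13 CWC sites, CCW was below CWW in all 31 but below both in 21. In the 29 libraries of sMf, rMf, UF2//AGe and UF4//AGe flowers the median level was 25.4% at CCW sites (12.7% to 34.1%), 33.2% at CWC sites (18.3% to 41.7%) and 33.0% at CWW sites (16.2% to 39.9%). The strongest sites named above were all CWW sites, and so were 3 of the 5 lowest.

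CHG sites in the same interval (42 sites) were above the CHH sites in all 31 libraries, with a median of 56.3% (33.4% to 69.2%) in the 29. CpG sites (34 sites) had a median of 36.5% and spread from 17.7% to 69.3%, and they were above the CHH mean in 19 of the 29. Compared with the 330 analysed CHH sites of the adjoining upstream part of the AGe interval, the region was higher in 28 of the 29. Its median was 32.3% and that of the upstream part 28.1%. The upstream part includes the 300 bp of low CHH level just before the region, with a median of 4.09%, which lowers its mean. The comparison was not made without this gap, so it does not show that the region is above the methylated upstream sites. The library that defined the interval is among the 29. In Col AGe rMf the values were 35.25% and 31.85% in the region and 33.7% and 30.7% upstream, whereas in M317 AGe rMf replicate B they were 34.9% and 23.3%.

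sMf and rMf flowers were compared within M317 and M318. Over the 299 sites M317 AGe sMf averaged 34.8% ± 1.70 (SD, n = 2) and AGe rMf 31.9% ± 2.78 (n = 3), and the ranges overlapped. limma called 0 sites, beside 0.218% of all cytosines tested called in either direction. At an unadjusted p under 0.05 in limma there were 6 of the 299 sites, beside 115 of the 2294 cytosines tested. The stretches differed in this comparison. In the low stretches the level was 22.2% and 20.7% in sMf and 9.73%, 7.35% and 13.3% in rMf, without overlap. In the high stretches it was 40.6% and 37.8% in sMf and 35.8%, 43.9% and 37.6% in rMf, with overlap. The low stretches thus stood at 54.7% and 54.8% of the high ones in sMf and at 27.2%, 16.7% and 35.3% in rMf. Windows of high stretch 2 were not alike, as seen after the fact. The 14th was higher in sMf without overlap, at 26.95% and 26.55% against 13.3%, 19.3% and 19.65% in rMf. The 11th was lower in sMf without overlap, at 35.3% and 36.45% against 37.1%, 42.95% and 38.55% in rMf.

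At single sites of M317, sMf libraries were all above rMf libraries at 58 of the 74 low-stretch sites and at 34 of the 225 high-stretch sites, beside 10.9% of all cytosines tested. They were all below rMf at 20 sites, each in a high stretch, beside 1.48% of all cytosines tested. The stretches had been set from Col AGe rMf libraries, and the split was made after the data were seen, so no test is given. The largest such difference, named after its values were seen, was at 10386505 on the minus strand, with 40% and 31% in sMf and 13%, 12% and 14% in rMf. In the opposite direction the plus-strand site at 10386034 was at 34% and 48% in sMf and 49%, 69% and 72% in rMf.

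In M318 the sMf mean was 19.3% ± 14.97 (n = 3) and the rMf mean 29.5% ± 4.24 (n = 3). limma called 0 sites, beside 0.0436% of all cytosines tested called in either direction. At an unadjusted p under 0.05 in limma there were 42 of the 299 sites, beside 109 of the 2294 cytosines tested. The difference of -10.2 percentage points became -1.61 without sMf replicate A, and 3 sites were called without sMf replicate B. In the low stretches the levels overlapped, at 0.189%, 19.7% and 12.65% in sMf and 9.37%, 19.2% and 5.49% in rMf. In the high stretches they were 2.76%, 32.9% and 30.5% in sMf and 42.4%, 28.3% and 35.6% in rMf. The difference of sMf minus rMf in the low stretches was -0.482 percentage points, and 4.85 without sMf replicate A. For the high stretches it was -13.4, and -3.73 without that replicate. Levels of both kinds of stretch still overlapped without it.

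Other backgrounds had a single library of each phenotype, so their differences were not tested. Col AGp//AGe had nearly equal region means, 38.55% in sMf and 38.4% in rMf, but 22.1% and 7.05% in the low stretches and 44.0% and 48.7% in the high ones; its sMf library is the one that defined the region. In hdp1-1 with ARE//AGe the low stretches were at 22.5% in sMf and 17.5% in rMf and the high stretches at 34.3% and 46.5%. In hdp2-1 they were at 20.0% in sMf and 11.9% in rMf, with 43.3% and 39.99% in the high stretches. In ddm1-1 the low stretches were at 23.9% in sMf and 21.1% in rMf, and in Met1-1 at 21.0% and 22.6%. The low stretches were thus higher in sMf in 4 of these 5 backgrounds and lower in Met1-1.

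CpG levels of the same interval were higher in sMf than in rMf in each background with 1 library of a phenotype and in M317, without a test. They were 42.4% and 57.5% in M317 AGe sMf and 25.65%, 27.4% and 34.65% in rMf, without overlap. In Col AGp//AGe they were 42.2% in sMf and 27.3% in rMf, in hdp1-1 59.1% and 31.6%, in hdp2-1 38.8% and 32.7%, in ddm1-1 66.8% and 30.3%, and in Met1-1 36.5% and 33.1%. In M318 they were 2.50%, 46.5% and 43.4% in sMf and 24.35%, 40.6% and 29.7% in rMf, with overlap and means of 30.8% and 31.5%. The overlap came from sMf replicate A, at 2.50%. Without that replicate, sMf replicates B and C were above every M318 rMf library. The part of CpG methylation in the low-stretch difference was not tested.

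**Figure D4:**
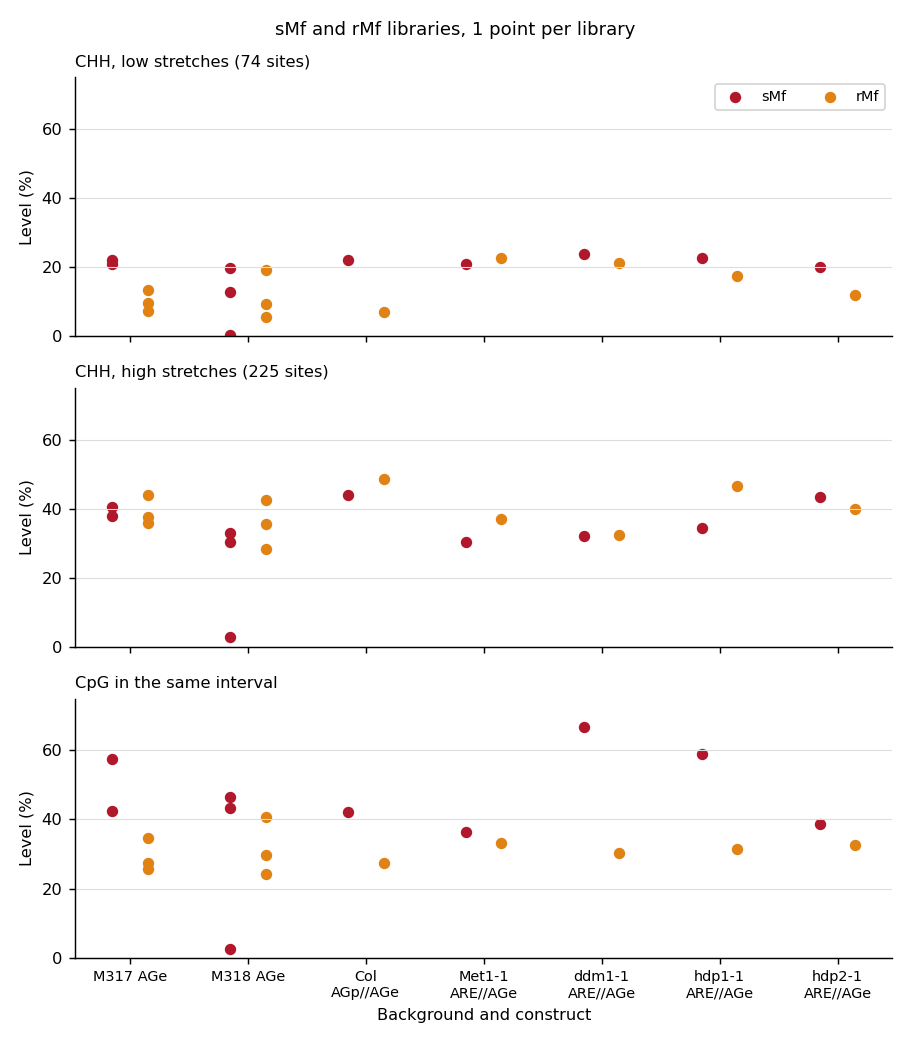
Methylation level in percent of sMf (left of each pair) and rMf libraries (right), 1 point per library, for 7 backgrounds and constructs: CHH sites of the low stretches (top), CHH sites of the high stretches (middle) and CpG sites of the same interval (bottom). In M317 the sMf points lie above the rMf points in the top and bottom panels and overlap with them in the middle one.

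The constructs other than AGe alone were each measured in 1 library of Col plants in set A. UF2//AGe was at 38.0% and UF4//AGe at 34.9%, beside 35.25% and 31.85% in Col AGe rMf and 1.92% and 0.826% in Col Wt. UF2//AGe had the highest low stretches of all 51 libraries, at 29.45%, and the highest CpG level of the interval, at 69.3%. Col ARE//AGe plants with Wt flowers were at 1.53% in set A and 3.59% in set C, beside 1.16% in Col Wt of set C.

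In set B, Col Ctr//AGE was measured with 2 flower phenotypes. The rMf library was at 32.3% and the Wt library at 17.7%, against 0.806% and 1.60% in Col Wt. The Wt-flower library was higher in high stretch 1, at 31.0%, than in high stretch 2, at 15.02%, whereas the rMf library had 38.0% and 40.7%. Its low stretches were at 2.04%, against 10.9% in the rMf library. Col AGE rMf of this set was at 16.0%, with 19.3% in high stretch 1 and 18.9% in high stretch 2, and none of its sites reached 50%.

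With ARE//AGe, flowers of both alleles of set B were methylated. Met1-1 was at 28% in sMf and 33.4% in rMf, against 0.495% in Met1-1 Wt, where 28 of the 299 sites were missing. ddm1-1 was at 30.1% in sMf and 29.5% in rMf, against 7.73% in ddm1-1 Wt, where 44 sites were missing. With Ctr//AGe, rMf flowers were at 32.5% in Met1-1 and 30.3% in ddm1-1, beside 32.3% in Col. The low stretches of these 3 rMf libraries, all of column block 3, were at 20.6% for Met1-1 and 21.55% for ddm1-1, beside 10.9% for Col. The 100 bp beyond the region were at 14.8% for Met1-1 and 19.8% for ddm1-1, beside 3.65% for Col. With 1 library each, these differences have no replicate check.

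In set C, ARE//AGe gave 28.7% in suvh1-2 sMf, against 11.8% in suvh1-2 Wt. hdp1-1 was at 31.4% in sMf and 39.4% in rMf, against 4.76% in hdp1-1 Wt, and hdp2-1 at 37.55% in sMf and 33.0% in rMf, against 0.646% in hdp2-1 Wt. Col libraries with ARE//AGe had Wt flowers and lie in another column block than those of the alleles, so allele, phenotype and column block cannot be told apart in a comparison with Col.

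The order of the high stretches was counted by set. High stretch 2 was above high stretch 1 in 0 of the 16 libraries of sMf, rMf, UF2//AGe and UF4//AGe flowers in set A with a mean of at least 10%, in 7 of 8 in set B and in 5 of 5 in set C. The Wt-flower libraries of at least 10% went the other way, with Col Ctr//AGE Wt of set B as given above and suvh1-2 Wt of set C at 11.2% in high stretch 2 and 16.75% in high stretch 1. Sets also differ in genotype, construct and column block, so these cannot be told apart here.

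**Figure D5:**
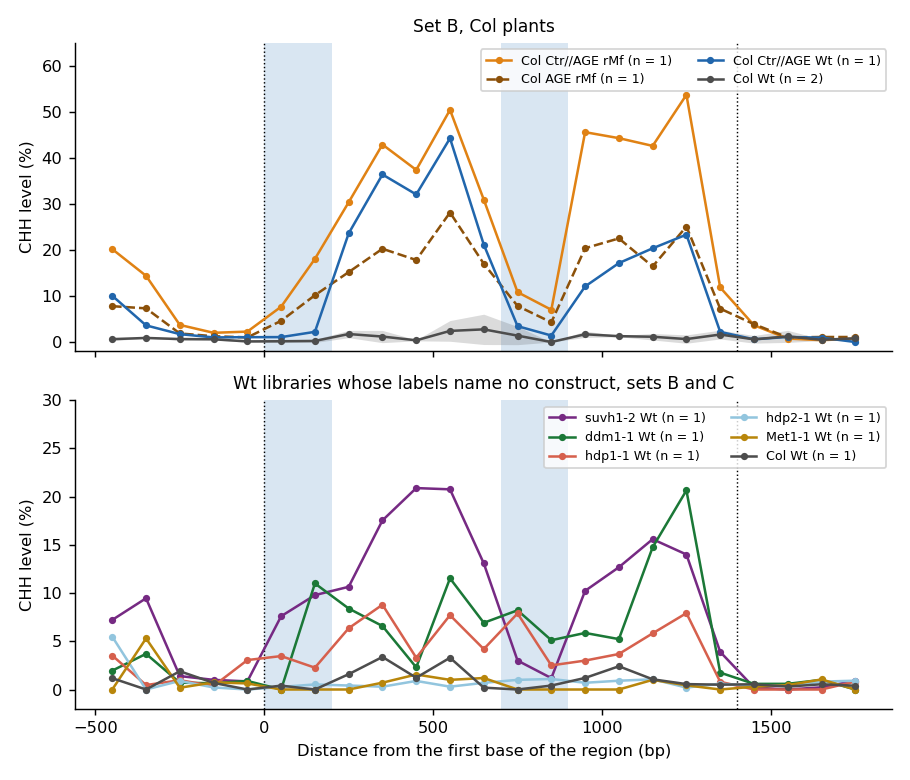
CHH level in percent in 100-bp windows against the distance from the first base of the region in bp, with Col plants of set B (top) and Wt libraries whose labels name no construct in sets B and C (bottom). Dotted lines mark the ends of the region, shading the low stretches and bands 1 SD where n = 2. Col Ctr//AGE Wt averages 31.0% in high stretch 1 and 15.02% in high stretch 2, against 38.0% and 40.7% in the rMf library, and suvh1-2 Wt reaches 20.9% in the 5th window.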

How the data were processed

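The labels' protocols describe bisulfite sequencing of flower DNA, and TAIR10, Bismark, HISAT2 and FastQC 0.11.9 are listed without roles, per the submitters' processing notes. The deposited table gives, per the file headers, a signed methylation level in percent per cytosine. Coverage is not listed, so precision could not be computed, and entries marked rc were treated as missing. Signs were removed after they had been used to realign rows.

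From column block 2 on, rows slip against the coordinate. A hidden Markov model of the slip (at most 40 rows) was fitted to the signs, and rows with a posterior of at least 0.9 were kept (94.2% to 95.8%). Sign matches moved to 99.7% to 99.9%, from 54.8% to 65.5% before. At the 299 sites, Pearson's r between Col AGe rMf replicates moved to 0.881 from 0.505, a check the model did not use.

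limma 3.58.1 (R 4.3.3) fitted log2((p + 0.01)/(1 - p + 0.01)), p being the level as a fraction, over 23 libraries of 9 groups and all cytosines above 0 in at least 2, with a trended empirical Bayes variance and Benjamini-Hochberg adjustment over 2294 cytosines. Whether replicates came from separate plants beyond the pooled lines is not stated, so p-values measure the spread between libraries. The realignment and the fit were tested on simulated data. Mean levels weight sites equally and have no p-value. Members, groupings and stretches were chosen with earlier results of these data known. Named sites are the 5 largest and 5 smallest differences among called sites without overlap per comparison, and the 5 highest and lowest over AGe libraries, of which those the text turns on are printed. Their p-values come from the libraries that picked them and are a description.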

Additional observations from a re-analysis of the deposited data

Results flagged for a closer look

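Libraries of plants with an allele but no construct named in their labels were outside every tested comparison, and 3 of them had a mean CHH level over the region above every Col Wt library of their set. suvh1-2 Wt was at 11.8%, against 1.16% in Col Wt of set C. ddm1-1 Wt was at 7.73% over 255 sites, against at most 1.60% in Col Wt of set B. hdp1-1 Wt was at 4.76%, against 1.16% in Col Wt of set C. The suvh1-2 Wt library had levels of 17.5% to 20.9% in the 4th to 6th window and 1.18% in the 9th, and its site at 10386051 was at 43%. The ddm1-1 Wt library was highest in the 13th window, at 20.65%, with 10.1% on the plus and 5.40% on the minus strand. Each of these groups has 1 library, and in set C the Col library lies in another column block, so library, allele and column block cannot be told apart.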

How the results depend on the processing

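In the comparisons of Col AGe rMf, M317 AGe sMf, M317 AGe rMf and M318 AGe rMf with Wt, counts of called sites stayed within 1.5 times under every planned setting except 167 for Col AGe rMf without AGe rMf replicate A. Leaving out 1 library gave 167 to 214, 204 to 275, 213 to 257 and 235 to 257 sites in these 4. For M318 AGe sMf against Wt the count was 92 with an offset of 0.05, 25 with no filter, 232 with a filter of 5 libraries, 79 with rows as deposited, 21 on the percent scale, 0 with the compared groups alone (69 at an unadjusted p under 0.05 in limma) and 22 to 285 without 1 library. For sMf against rMf it was 0 in M317 throughout and 0 to 3 in M318 without 1 library. For AGp Sterile it was 1 with an offset of 0.05, 1 with no filter, 0 with a filter of 5 libraries (4 unadjusted), 1 with rows as deposited, 0 on the percent scale (2 unadjusted) and 0 to 5 without 1 library. With a replicate block, counts were 246, 268, 257, 166, 277, 0 and 0, in the order Col AGe rMf, M317 sMf, M317 rMf, M318 sMf, M318 rMf, and sMf against rMf in M317 and M318. Correlations of same-letter libraries ran from -0.153 to 0.177, and those of libraries with different letters from -0.169 to 0.148. With 2 or 3 libraries per group these values cannot exclude pairing by letter, and in set A the letters also follow the column block. The main fit assumed no pairing.

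Differences in mean level were 19.2, 20.3, 17.4 and 15.5 percentage points in the 4 comparisons with Wt named first when listed zeros were treated as missing, and 35.7 for M317 AGe sMf with rows as deposited. Within column block 1 alone they were 25.3 for M317 AGe rMf, 1.13 for M318 AGe sMf, 33.2 for M318 AGe rMf, 6.67 for sMf against rMf in M317 and -32.1 in M318. Within column block 2 alone sMf against rMf was 0.391 in M317 and 0.769 in M318, where the sign is opposite to that of -10.2 over all libraries. For AGp Sterile the difference of 0.756 was -0.467 without replicate 1 and 1.98 without replicate 2. The cause of these changes was not tested. Unknown depth limits all listed zeros.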
